A study of Mus musculus with 12 samples.

Results

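Lipid-associated macrophages are the macrophages that gather around dying, overfilled fat cells in obese adipose tissue and take up and break down the lipid they release. The 8 genes described here, Trem2, Gpnmb, Cd9, Cd63, Spp1, Lipa, Gdf3 and Rnf128, are taken as genes of such cells. They were chosen by symbol, from 27825 genes listed for the series, and each matched 1 protein-coding gene. The choice was made with their epididymal rise with high fat feeding already known, so the values of that comparison are given as a description, without a test, and support nothing.

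The libraries are bulk RNA-seq of cells labelled as endothelial, not of sorted macrophages. They came from male ROSA26-eYFP+/+ Cdh5-CreERT2+ mice, in which Cre recombinase, driven by the endothelial gene Cdh5 and activated by tamoxifen, turns on yellow fluorescent protein. All 4 groups share this genotype and a tamoxifen diet eaten for 2 weeks from the age of 6 weeks. From 8 weeks, mice ate normal chow (NC, 5.8% fat) or a high fat diet (HFD, 60% fat) for 12 to 13 weeks, and cells were sorted from mesentery (Mes) or epididymal fat pads (Epi). The groups NC Mes, HFD Mes, NC Epi and HFD Epi hold 3 libraries each, lettered A, B and C, and each library pools tissue of 6 mice. The protocol speaks of 2 independent replicates while the titles give 3 letters, so p-values measure the spread between these libraries, which may be partly technical. The sample descriptions carry numbers, 50 to 53 in 2 libraries of each group and 87 or 88 in the other (library C on chow, library A on the high fat diet). What the numbers stand for is not stated, and differences within each range are given below.

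Library totals ran from 8348897 to 25397963 reads, and 3 reads, the floor for calling a gene present, equal 2.12 to 4.22 normalized counts. The 12 endothelial markers, Cdh5 and Pecam1 among them, were detected in every group and summed to 130087 to 197697 normalized counts in NC Mes, 124198 to 146548 in HFD Mes, 89252 to 106184 in NC Epi and 48051 to 93174 in HFD Epi. The 18 general macrophage markers summed to 2889 to 11765 in NC Mes, 7081 to 30283 in HFD Mes, 7819 to 96383 in NC Epi and 142103 to 364887 in HFD Epi, and none of them was at 0 in all 3 libraries of a group. In bulk samples fewer cells of a type and less RNA per cell cannot be told apart. The part of macrophage RNA in the values of the 8 genes was not tested, beyond the comparison with these markers given below.

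TREM2 is a lipid-sensing receptor on the macrophage surface that signals through the adaptor TYROBP and sets much of the lipid-handling programme of these cells. The lipid that is swallowed reaches the lysosome, where lysosomal acid lipase, the product of Lipa, splits cholesteryl esters and triglycerides. GPNMB is a glycoprotein of lysosomes and the cell surface that rises when lysosomes are loaded. CD9 and CD63 are tetraspanins, membrane proteins common on extracellular vesicles and found in many cell types, with CD63 enriched in late endosomes and lysosomes. Secreted osteopontin (Spp1) binds integrins and CD44, GDF3 is a ligand of the TGF-beta family made by fat-tissue macrophages, and RNF128 is an E3 ubiquitin ligase of endosomal membranes.

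Promoter sequences are shown because several of the 8 genes move together over the libraries. RefSeq windows of 300 bases (250 before and 50 after the transcription start, build GRCm38.p6) were found for 7 of the 8 genes, 8 windows in all. Counts below are of genes, whereas the shares beside them are of promoters. The motif TGANTCA, a loose form of the site bound by AP-1 factors, was searched with any base at N. It lay in the windows of Gpnmb and Trem2, that is 2 of 7 genes, against 7.81% of 32851 promoters. The pattern reads alike on both strands, but a single stretch need not. At N the Gpnmb stretch has C and the Trem2 stretch has A. These are shown with the motif in capitals.
Gpnmb, chr6:49036515-49036543, plus strand: ccaggggcaagTGACTCAtgagcacgagt
Trem2, chr17:48346381-48346409, plus strand: ttctccctcctTGAATCAcagcgcctacc

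The motif GAGGAA, the core bound by PU.1 and other ETS factors, was searched on both strands and lay in 5 of 7 genes (Spp1, Cd63, Trem2, Lipa and Rnf128), against 28.3% of promoters. Lipa held another match, at -249 from the transcription start, which is not shown. The stretches of the secreted ligand and the lipase are given as examples, with the motif in capitals.
Spp1, chr5:104434987-104435014, plus strand: caaaaccagagGAGGAAgtgtaggagca
Lipa, chr19:34527641-34527668, minus strand: ctttgaagcagGAGGAAgctctggctgg

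The E-box CACGTG (7.15% of promoters) and its extended forms TCACGTG, which contains it, and TCATGTG (3.77% each), the forms of site bound by the MiT/TFE factors that govern lysosomal genes, were in none of the 8 windows, both strands searched. A match, or its absence, describes these letters only.

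Trem2 was low in the 9 libraries outside HFD Epi. Its normalized counts were 22.8, 16.1 and 73.2 in NC Mes A, B and C, 484, 19.4 and 78.1 in HFD Mes, 97.9, 162 and 74.6 in NC Epi, and 5977, 2295 and 4874 in HFD Epi. The 3 HFD Epi libraries stood apart from the other 9, and HFD Mes A was the highest of those 9. HFD Epi held 92.8% of the Trem2 counts summed over the 12 libraries, and the mean there, 4382 ± 1889.9 (SD, n = 3), was 39.4 times that of NC Epi, 111 ± 45.1.

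Gpnmb had the widest span of the 8 genes. It was at 21.6, 9.86 and 118 in NC Mes, at 7900.03, 5.54 and 75.1 in HFD Mes, at 117, 87.7 and 152 in NC Epi, and at 51466, 13675 and 37943 in HFD Epi. HFD Mes A stood far above the other mesentery libraries, while HFD Mes B, with 4 reads, was the lowest of all 12. The mean in epididymal fat went from 119 ± 32.3 to 34361 ± 19148 (SD, n = 3), 289 times as high.

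The tetraspanin genes Cd9 and Cd63 were detected in every library. Which cells their reads came from was not tested. Cd9 had normalized counts of 4465, 5369.8 and 5969.6 in NC Mes, 5933, 5411 and 6319 in HFD Mes, 7959, 7833 and 5365 in NC Epi, and 10312, 9634 and 11291 in HFD Epi. The HFD Epi libraries were the highest, by a small step: the mean was 1.48 times that of NC Epi. Cd63 was at 719, 641 and 1209 in NC Mes, 3407, 815 and 1421 in HFD Mes, 8878, 8044 and 5521 in NC Epi, and 25769, 15847 and 28364 in HFD Epi. Every epididymal library lay above every mesentery library, and HFD Epi lay above NC Epi with a mean 3.12 times as high. A pseudogene copy, Cd63-ps, was listed at 1.03% to 1.15% of the Cd63 level in the group means, so reads may be split between them. How reads that match both were counted is not known here, so that share does not bound the uncertainty of the Cd63 values.

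Spp1, alone of the 8 genes, had its highest single library in mesentery. Its counts were 2411, 599 and 486 in NC Mes, 877, 2730.4 and 9238 in HFD Mes, 179, 139 and 79.7 in NC Epi, and 4812, 2558 and 4811 in HFD Epi. NC Epi was the low group, below all 9 other libraries, and HFD Mes C was the highest library. HFD Mes held 44.4% of the summed counts and HFD Epi 42.1%. The mean of HFD Epi was 30.6 times that of NC Epi.

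Gdf3, the other secreted ligand, had 1 read in each NC Mes library, under the floor of 3 reads. It was at 16.8, 1.39 and 37.5 in HFD Mes, 0.783, 25.2 and 8.17 in NC Epi, and 492, 261 and 424 in HFD Epi. The HFD Mes and NC Epi ranges overlapped and each held 1 library with a single read, whereas HFD Epi was above all others.

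The lysosomal lipase gene Lipa was at 1511, 1125 and 1345 in NC Mes, 1401, 1155 and 1167 in HFD Mes, 834, 1001 and 751 in NC Epi, and 4919.5, 2637 and 4539.7 in HFD Epi. NC Epi was the lowest group and HFD Epi the highest, with both mesentery groups overlapping between them. Rnf128 was at 14.8, 3.58 and 2.82 in NC Mes, 162, 20.8 and 8.89 in HFD Mes, 23.5, 84.3 and 12.3 in NC Epi, and 1962, 722 and 1771 in HFD Epi. HFD Epi held 93.0% of its summed counts, and HFD Mes A was again the highest library outside that group.

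**Figure D1:**
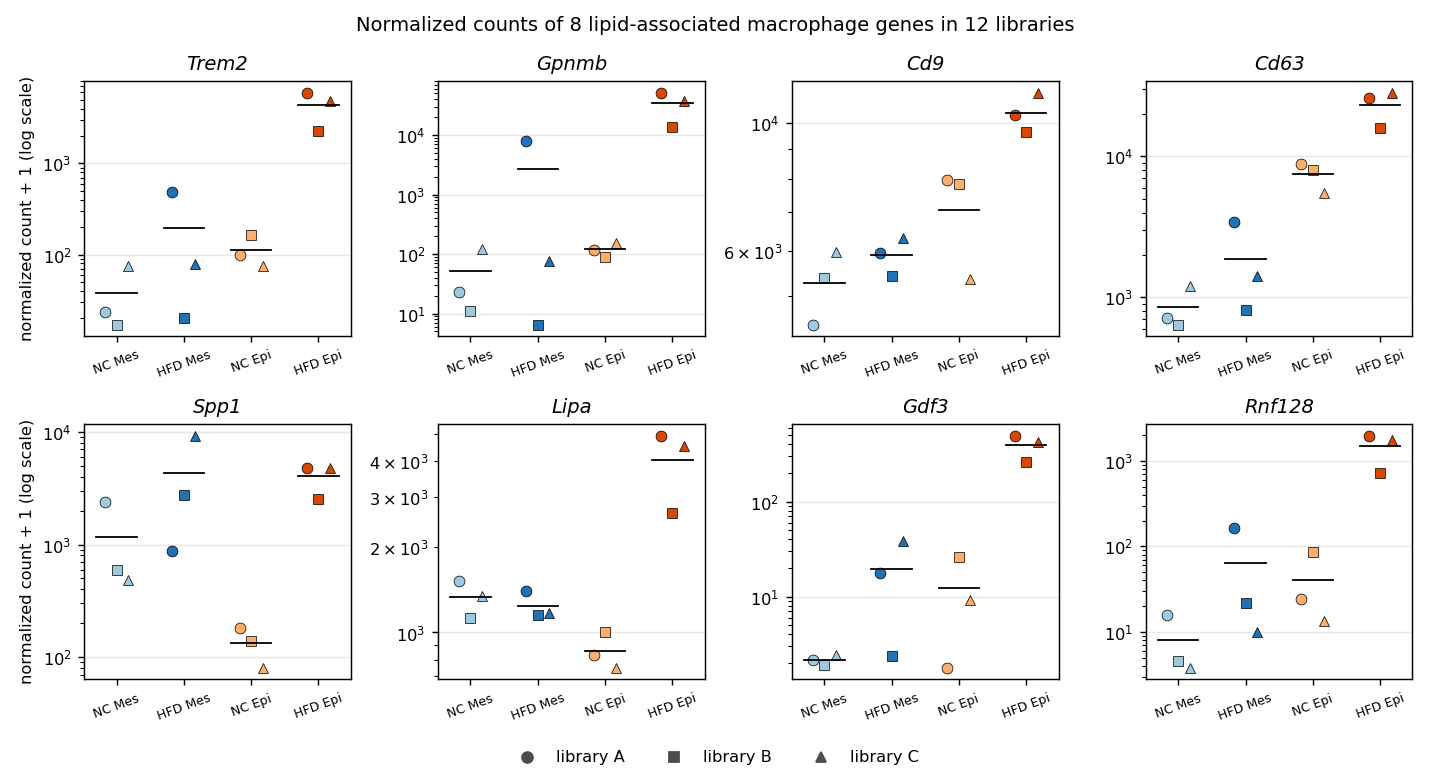
Normalized count + 1 on a log scale (vertical axis, its own range in each panel) of the 8 genes in the 12 libraries, by group; symbols give the library letter and bars the group means. HFD Epi is the top group in every panel but that of Spp1, where HFD Mes C, at 9238, is the highest library.

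Per kilobase of exon (lengths from the GENCODE vM21 models), the order of levels differed between the groups. In HFD Epi, Cd63 was first with a mean of 6335 normalized counts per kb, then Gpnmb with 5275 and Cd9 with 5094, and these neighbours overlapped in their ranges. Spp1 followed with 2464, apart from Cd9 above and from Trem2 (886) below, then Lipa with 595, Rnf128 with 429 and Gdf3 with 162. The ranges of Trem2 and Lipa, and of Lipa and Rnf128, overlapped, and Gdf3 was lowest with no overlap. In NC Epi the same scale gave Cd9 3450.3, Cd63 2032, Lipa 127, Spp1 80.5, Trem2 22.5, Gpnmb 18.2, Rnf128 11.5 and Gdf3 4.70 per kb. There the first 4 did not overlap with their neighbours, and each of the last 4 overlapped with the next. In NC Mes the order was Cd9 (2577 per kb), Spp1 (707), Cd63 (233), Lipa (196), then Gpnmb, Trem2, Rnf128 and Gdf3 at 7.66 or less, and the ranges of Spp1, Cd63 and Lipa overlapped in turn. In HFD Mes, Cd9 (2880.4) and Spp1 (2598) overlapped at the top, and Cd63 (511), Gpnmb (408) and Lipa (183) followed, also overlapping in turn, before Trem2 (39.2), Rnf128 (18.4) and Gdf3 (7.67).

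The question of what the high fat diet did in epididymal fat was put to all 22238 genes with a mean of at least 10 normalized counts, with limma on log2(normalized count + 1), where an adjusted p under 0.05 is a call and fold changes of low genes are understated. The diet contrast is the one that chose the 8 genes. The log2 changes there, with the SE of the fit, were 8.00 (1.79) for Gpnmb, 5.66 (1.15) for Gdf3, 5.49 (0.978) for Rnf128, 5.25 (0.884) for Trem2 and 4.94 (0.730) for Spp1. Lipa, Cd63 and Cd9 had smaller values of 2.18 (0.230), 1.63 (0.432) and 0.58 (0.202). The call rule was met by 5 of the 8, all higher, against 0.549% of all genes tested and 0.418% called higher, and the HFD Epi libraries lay wholly above the NC Epi libraries for 8 of 8, against 6.93%. The median change of the 8 was 5.10 beside 0.10 for all genes tested. Those counts only restate the choice of the genes. The count called depended on single libraries and on the tool: it was 1 without HFD Epi C, 2 without HFD Epi A, NC Epi A or NC Epi C, 1 by edgeR and 8 by DESeq2. The number called among all 22238 genes moved too, from 122 in the main fit to 29 by edgeR and 546 by DESeq2. It was 23 without HFD Epi C, 43 without HFD Epi A, 45 without NC Epi A and 51 without NC Epi C. All 8 were higher both in the libraries numbered 50 to 53 and in those numbered 87 and 88. Gpnmb differed by 7.80 in the first range and 8.39 in the second, Trem2 by 4.72 and 6.31, Lipa by 1.92 and 2.71, and Cd9 by 0.40 and 0.94.

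In mesentery the same diet gave no call among the 8 genes with limma, against 0.0135% of all genes tested, and the 2 diet groups overlapped for all 8, where 4.47% of genes were higher and 5.14% lower without overlap. An unadjusted p under 0.05 was found for 3 of the 8 (Cd63, Spp1 and Rnf128), against 6.15% of all genes, and edgeR and DESeq2 each called 0. Among all 22238 genes edgeR called 1 and DESeq2 154 there. The log2 changes were 2.46 for Gdf3, a fitted value that rests on 1 read in each chow library and is no bound, 2.36 for Gpnmb, 2.33 for Rnf128, 1.66 for Spp1, 1.56 for Trem2, 0.94 for Cd63, 0.17 for Cd9 and -0.09 for Lipa. Their limma adjusted p-values ran from 0.743 (Rnf128) to 0.981 (Lipa). The median of the 8 was 1.61, beside 0.00 for all genes, and 7 of 8 were above 0.

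The Gpnmb value in mesentery rested on HFD Mes A: without it the log2 change was -0.47 in place of 2.36. Without that library Trem2 went to 0.37, Cd63 to 0.39 and Rnf128 to 1.17, whereas Spp1, for which HFD Mes A was the lowest of its group, went to 2.50 and Gdf3 to 2.17. The ranges of numbers differed likewise: within 50 to 53 the diet difference was 0.51 for Gpnmb, 0.79 for Rnf128, 0.99 for Trem2 and 2.06 for Spp1, and within 87 and 88, a single library on each diet, it was 6.05, 5.41, 2.71 and 0.85. The Lipa value turned to 0.04 when the libraries were rescaled to the same total and to 0.01 without NC Mes A, so that it has no stable sign.

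**Figure D2:**
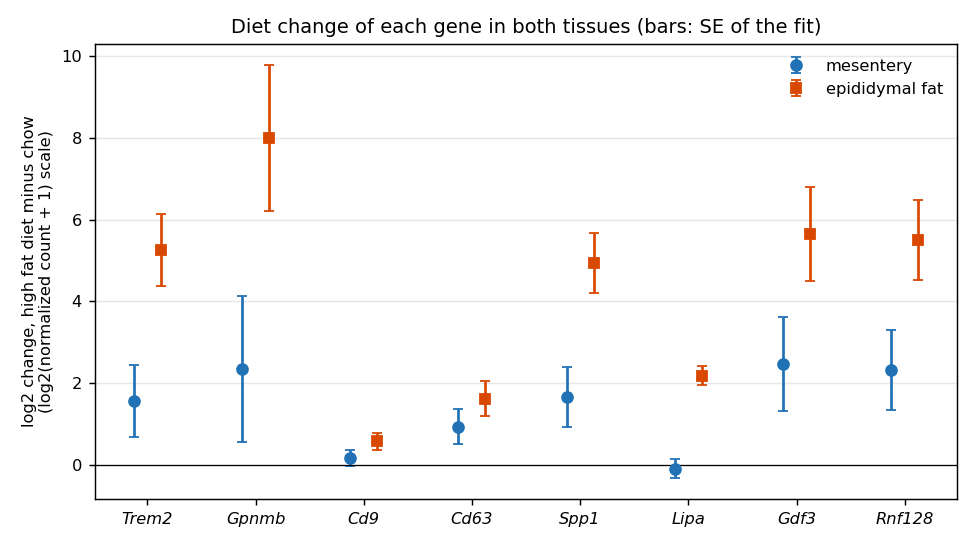
Log2 change on the high fat diet (vertical axis, high fat minus chow on the log2(normalized count + 1) scale) of each gene in mesentery and in epididymal fat, 3 libraries a group; bars are the SE of the fit. The epididymal values run from 0.58 for Cd9 to 8.00 for Gpnmb and chose the genes, and the mesentery values run from -0.09 for Lipa to 2.46 for Gdf3.

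The difference between the diet changes of the tissues, epididymal minus mesentery, contains the libraries that chose the genes and is also a description. It was 5.64 for Gpnmb, 3.69 for Trem2, 3.28 for Spp1, 3.19 for Gdf3, 3.16 for Rnf128, 2.28 for Lipa, 0.68 for Cd63 and 0.41 for Cd9 on the log2 scale. With limma 0 of 8 were called, against 0.0045% of all genes, 5 of 8 had an unadjusted p under 0.05, against 4.71% of all genes, edgeR called 0 and DESeq2 called 1, Lipa. Among all 22238 genes edgeR called 1 and DESeq2 133 for this difference. The tissue difference on the high fat diet uses the same HFD Epi libraries and is likewise a description from which nothing is read: 7 of 8 were higher in epididymal fat than in mesentery by the call rule (8.34% of all genes, 4.91% higher) and without overlap (15.1%). The exception was Spp1, whose log2 difference was 0.47 and went to -0.37 without HFD Mes A.

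On chow, a comparison that did not choose the genes although it shares the NC Epi libraries with the one that did, Cd63 was higher and Spp1 lower in epididymal fat than in mesentery. Low NC Epi values raise the contrast that chose the genes, so the Spp1 p-value below is not free of that choice. Cd63 had a log2 difference of 3.15 (SE 0.432, limma adjusted p = 0.000405), a mean of 7481 ± 1748 against 856 ± 308 (SD, n = 3), with all 3 epididymal libraries above all 3 of mesentery. Spp1 had a log2 difference of -2.81 (SE 0.730, limma adjusted p = 0.0225), a mean of 133 ± 50.1 against 1165 ± 1080.2, with no overlap in the other direction. These 2 of 8 stand against 12.8% of all genes called, with 7.32% called higher, as Cd63 was. Trem2 was also higher and Lipa also lower without overlap, but neither passed (adjusted p = 0.235 and 0.101). Genes without overlap made up 16% of all genes in the upward direction and 12.7% in the downward. The Cd63 call held under all 27 alternatives and its difference was 3.64 in the libraries numbered 50 to 53 and 2.19 in those numbered 87. The Spp1 call was lost without NC Mes A, where the difference was -2.09 (limma adjusted p = 0.106), and also without NC Epi B or NC Epi C. The Spp1 call held under 23 of 27 alternatives, and the difference was -2.92 and -2.59 in the 2 ranges. NC Mes A had 20.6% mitochondrial reads, against 2.5% to 11.5% in the other libraries, and the part of this in the Spp1 value was not tested.

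Gpnmb (1.92, adjusted p = 0.566), Rnf128 (2.22, 0.174), Gdf3 (1.82, 0.367) and Cd9 (0.41, 0.231) did not pass in the chow comparison with limma. Marker genes of other cells parted the same groups: 6 of 7 adipocyte, 6 of 7 fibroblast, 6 of 6 mural cell and 5 of 5 red blood cell genes were called higher in NC Epi, and 5 of 5 pancreatic acinar genes lower. Acinar genes, whose products are digestive enzymes, summed to 20716 to 140350 normalized counts in NC Mes and 183 to 243 in NC Epi. Of the general macrophage genes 5 of 18 were called higher and 1 lower, and of the resident macrophage genes 6 of 7 were called higher, with a median log2 difference of 3.75. Without NC Epi B, 1 of the general and 2 of the resident genes were called. Their part in the Cd63 and Spp1 values was not tested.

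Over the 12 libraries the 8 genes did not all follow 1 profile. Trem2 and Gpnmb had a Pearson r of 0.98, Trem2 and Rnf128 0.93, Trem2 and Gdf3 0.92, and Cd9 and Cd63 0.90. Spp1 was least like the others, with r from 0.01 (Cd63) to 0.67 (Lipa). These values describe 12 libraries that share tissue, diet and, in HFD Epi, the rise by which the genes were chosen.

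Set beside macrophage markers of the same library, the 8 genes differed among themselves; these values come from the contrast that chose the genes and are given as a description, with no share of all genes measured the same way. The mean log2 level of the 18 general macrophage genes was itself 2.71 higher in HFD Epi than in NC Epi, without overlap, and 1.75 higher in HFD Mes than in NC Mes, with overlap. With that mean subtracted, the epididymal diet difference that was left was 5.29 for Gpnmb, 2.94 for Gdf3, 2.78 for Rnf128, 2.54 for Trem2 and 2.23 for Spp1, each without overlap between the diets. Cd9 was left with -2.13, also without overlap, and Cd63 (-1.09) and Lipa (-0.53) overlapped. The mean log2 level of the markers Adgre1 and Csf1r was 3.32 higher in HFD Epi than in NC Epi, without overlap. It was 3.08 higher in HFD Mes than in NC Mes, also without overlap, with Adgre1 at 0 in NC Mes B. Measured against the defining markers Adgre1 and Csf1r alone, the values were 4.68 for Gpnmb, 2.33 for Gdf3, 2.17 for Rnf128, 1.93 for Trem2 and 1.62 for Spp1, and below 0 for Cd9 (-2.74), Cd63 (-1.70) and Lipa (-1.14).

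Gpnmb also parted from the general markers in single libraries. NC Epi B had a macrophage mean of 10.04, near the 10.50 of HFD Epi B, yet its Gpnmb level was 3.57 below that mean, where HFD Epi B was 3.24 above. In HFD Mes A the macrophage mean was 8.18 and Gpnmb was 4.77 above it, and in HFD Mes C the mean was 9.14 and Gpnmb was 2.89 below. Trem2 was likewise 0.74 above in HFD Mes A and 2.83 below in HFD Mes C. Lyz2, the lysozyme of macrophages, likewise set NC Epi B nearer to HFD Epi than to its own group: it was at 5582, 68477 and 3612 in NC Epi A, B and C and at 120783, 100031 and 249273 in HFD Epi.

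**Figure D3:**
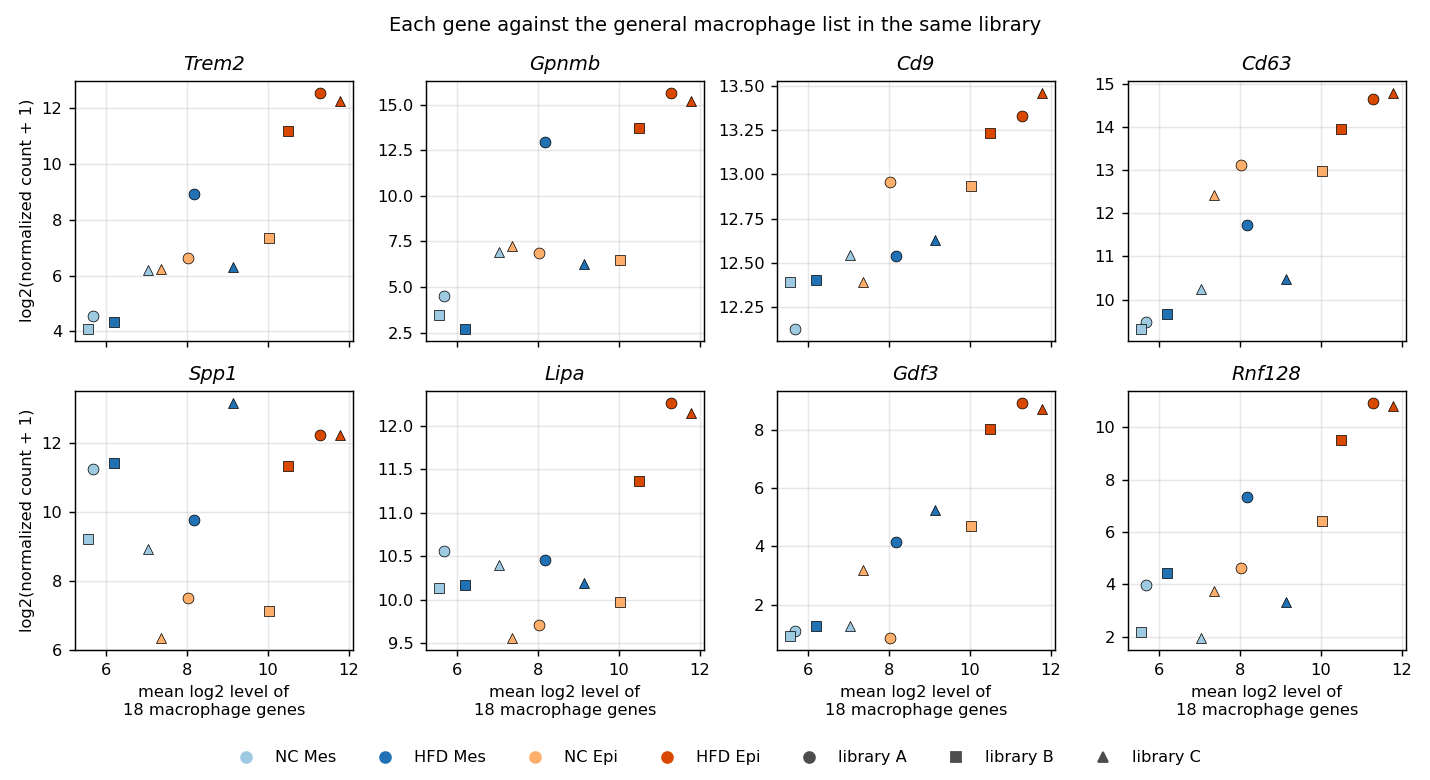
Log2(normalized count + 1) of each gene (vertical axis) against the mean log2 level of 18 general macrophage genes in the same library (horizontal axis); colours are groups, symbols library letters. For Gpnmb, NC Epi B (macrophage mean 10.04) lies far under HFD Epi B (10.50), and HFD Mes A lies far above HFD Mes C.

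The genes nearest in pattern were taken from 8769 other genes with a mean of at least 100, by Pearson correlation over the 12 libraries with the mean standardised profile of the 8. They were P2rx4, an ATP-gated ion channel (0.99), Capg, an actin-capping protein (0.98), the lysosomal proteins Ctsa, Ctsb and Pld3 (each 0.98), and Soat1, which esterifies cholesterol for storage (0.97). For single genes the nearest were Lgals3, a galectin, for Trem2 (0.99), Hpgds, the prostaglandin D synthase, for Gpnmb (0.97), Emp3 for Cd9 (0.98), Lpl, lipoprotein lipase, for Cd63 (0.98), Fkbp11 for Spp1 (0.91), Nceh1 for Lipa (0.96), Plekhb2 for Gdf3 (0.96) and Anxa1 for Rnf128 (0.96).

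Of the wider genes of lipid-associated macrophages, a list also chosen with earlier results known, 8 of 15 tested were called higher in HFD Epi than in NC Epi with limma and 0 lower, where 0.418% of all genes were called higher. The median log2 change was 1.70. Called were Lgals3 (5.34, SE 0.937), the cathepsins Ctsb (2.81, SE 0.355), Ctsz (1.68, SE 0.261) and Ctsl (1.499, SE 0.202), Capg (2.77, SE 0.364), the lipid droplet coat protein Plin2 (2.06, SE 0.351), the cathepsin inhibitor Cstb (1.70, SE 0.259) and Emp1 (1.15, SE 0.206). The largest change of the list, 8.02 (SE 1.68) for the macrophage elastase Mmp12, did not pass (adjusted p = 0.0585), nor did Itgax (5.21) or Cd68 (4.62). The call count was 3 by edgeR, 10 by DESeq2, 11 without NC Epi B and 4 in the libraries numbered 50 to 53. Among all 22238 genes these settings called 29, 546, 142 and 31, against 122 in the main fit. Limma without trend called 0 of all 22238 genes higher in this contrast and 1 lower. None of the upward epididymal diet calls here or in the lists below held with it. Mmp12, like Gpnmb, was at 10638 in HFD Mes A against 18.02 and 136 in HFD Mes B and C.

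Of the lysosomal genes of lipid and protein breakdown, 6 of 19 were called higher and 0 lower, with a median change of 0.78. They were Atp6v0d2, a subunit of the lysosomal proton pump (6.97, SE 1.14), the proteases Ctsk (2.76, SE 0.521) and Ctsd (2.45, SE 0.356), Psap, the precursor of the saposins that help degrade sphingolipids (1.88, SE 0.323), the hexosaminidase Hexa (1.82, SE 0.267) and progranulin, Grn (1.30, SE 0.234). Atp6v0d2 rose from 51.7, 35.6 and 22.5 normalized counts in NC Epi to 6335, 2746 and 5134 in HFD Epi. The count was 1 by edgeR, 12 by DESeq2 and 2 in the libraries numbered 50 to 53. Of 8 genes of cholesterol efflux and esterification, Soat1 (2.46, SE 0.358) and Nceh1, a cholesteryl ester hydrolase (2.20, SE 0.337), were called higher and 0 lower. Their median was -0.06, below the all-gene 0.10, and 0 were called in the libraries numbered 50 to 53.

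None of the other pathway lists held a call in epididymal fat with limma. In that contrast 6.94% of all 22238 genes had an unadjusted p under 0.05, edgeR called 29 and DESeq2 546. TREM2 signalling had 0 of 10, with a median of 1.30. Tyrobp, the adaptor of TREM2, had the largest value (3.48, adjusted p = 0.0585). In that list 6 genes had an unadjusted p under 0.05, edgeR called 0 and DESeq2 2. The other tetraspanins had 0 of 9 (2 unadjusted, 0 by edgeR and DESeq2) and a median of -0.26, with the leukocyte tetraspanins Cd53 at 3.11 and Cd37 at 2.46 and the broadly expressed Cd151 and Cd81 at -0.72 and -0.54. MiT/TFE factors, whose sites were searched above, had 0 of 4 (1 unadjusted, 0 by edgeR, 1 by DESeq2), with Mitf at 1.81. Receptors of osteopontin and GDF3 had 0 of 10 (1 unadjusted, 0 by edgeR and DESeq2) and a median of -0.11, with Cd44 at 1.46. Lipid uptake genes that endothelium and fat share had 0 of 5 (2 unadjusted, 0 by edgeR, 1 by DESeq2).

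Of the markers of cell types, the general macrophage list had 0 of 18 called on the diet in epididymal fat with limma, although 17 of 18 values were above 0 and the median was 2.85. An unadjusted p under 0.05 was found for 16, edgeR called 0, DESeq2 3 and limma without NC Epi B 4. Among all 22238 genes 6.94% had an unadjusted p under 0.05, and these settings called 29, 546 and 142. Adgre1 (4.15), Ms4a7 (3.84), Lyz2 (3.70) and Fcgr1 (3.48) had the largest values. Resident macrophage genes had 0 of 7 (0 unadjusted, 0 by edgeR and DESeq2), a median of 0.86 and 2.37 for Folr2. The osteoclast or giant cell list had 1 of 6, Acp5 (1.31, SE 0.260), which lost its call by edgeR and without NC Epi B or HFD Mes A. The adipocyte genes Cfd (-5.84, SE 0.461), Retn (-3.31, SE 0.401) and Adipoq (-2.65, SE 0.398) fell, 3 of 7 with 0 called higher, and the summed level of that list went from 63914 to 86538 in NC Epi to 4297 to 14629 in HFD Epi. Of fibroblast genes 1 of 7, the matrix proteoglycan Lum (2.30, SE 0.369), rose, and edgeR called 0. Endothelial genes had 0 of 12 called (5 unadjusted, 0 by edgeR, 1 by DESeq2) and a median of -0.63, with 11 of 12 values below 0. Monocyte, dendritic cell, neutrophil, mast cell, lymphocyte, mesothelial, mural, acinar and red blood cell lists had 0 called by limma, 0 by edgeR, at most 2 unadjusted in a list, and by DESeq2 1 mural gene. In mesentery 0 genes of the pathway lists and of the macrophage, osteoclast, fibroblast and endothelial lists were called by limma on the diet. The adipocyte list had 1 of 7 called higher there, the hormone gene Lep (3.71, SE 0.478), named after its values were seen; edgeR called 0 and DESeq2 2 of that list. In mesentery 8 of 18 general macrophage and 7 of 15 wider lipid-associated macrophage genes had an unadjusted p under 0.05, edgeR called 0 in either list and DESeq2 2 in each. Among all 22238 genes 6.15% had an unadjusted p under 0.05 there, edgeR called 1 and DESeq2 154.

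**Figure D4:**
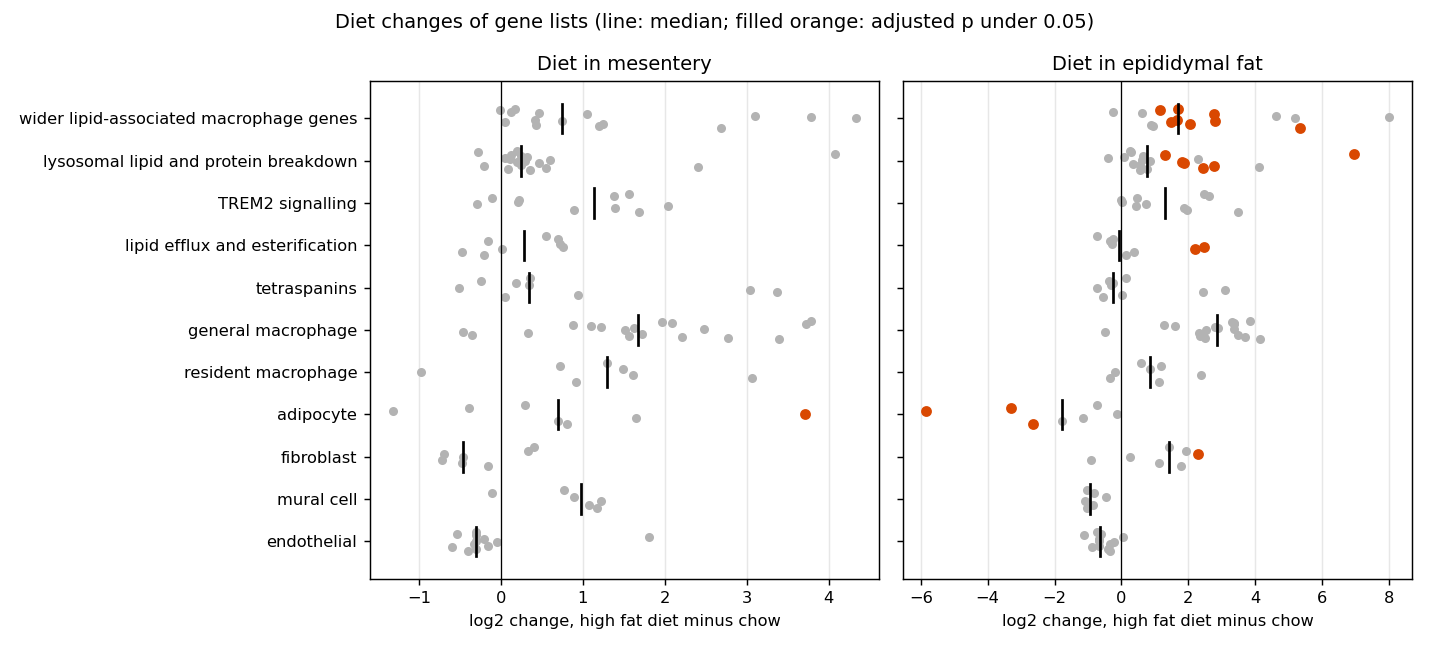
Log2 change on the high fat diet (horizontal axis, high fat minus chow) of each tested gene of 11 lists in mesentery (left) and epididymal fat (right); orange points had an adjusted p under 0.05 by limma, and black lines are list medians. In epididymal fat 8 of 15 wider lipid-associated macrophage genes and 6 of 19 lysosomal genes are orange, and 0 of 18 general macrophage genes. The medians of these lists are 1.70, 0.78 and 2.85, so the list with 0 called has the largest median of them.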

How the data were processed

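Bulk RNA-seq of 12 libraries in 4 groups was used as deposited. The authors deposited a signal for each gene, normalized counts; STAR 2.7.9a, featureCounts, Subread, DESeq2 1.34.0 and build mm39 are named per the submitters' processing notes, with no roles given. Every value was a whole number of reads times 1 step per library (100% whole within 0.001), the step being 1 divided by the median-of-ratios size factor, so reads were recovered. The use of strand is not given in the sources used here. Depth was 8348897 to 25397963 reads; floors cover counting error only.

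Tests used limma 3.58.1 (R 4.3.3; lmFit, eBayes with trend) on log2(normalized count + 1), with 1 mean per group, for 22238 genes with a mean of at least 10, Benjamini-Hochberg adjustment within a contrast and a threshold of 0.05. edgeR 4.0.16 and DESeq2 1.42.0 on recovered reads, other filters, pseudocounts and scalings, replicate blocks and left-out libraries were alternatives. The 8 genes and all lists were chosen with earlier results of these data known; of a list at most 4 genes with the largest epididymal diet change, and those called, are named. Exon lengths came from GENCODE vM21, promoters from RefSeq GRCm38.p6 by symbol (Gdf3 had no match), and no coordinates of the build mm39 are given.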

Additional observations from a re-analysis of the deposited data

How the results depend on the processing

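In mesentery the diet called 0 of the 8 genes under all 27 alternatives, and the replicate block by title letter left the count at 0 there and at 5 in epididymal fat, where Gdf3 lost its call and Gpnmb gained one. For the diet in epididymal fat the count of 5 became 0 with limma without trend, 1 with edgeR, 8 with DESeq2 and 3 in the libraries numbered 50 to 53, and ran from 1 to 6 with 1 library left out. Among all genes the 122 of the main fit became 1, 29, 546 and 31 in these settings, and 23 to 176 with 1 library left out. For the tissues on chow the count of 2 became 1 without trend, 4 in the libraries numbered 50 to 53 and 1 to 3 with 1 library left out. Among all genes the 2843 of the main fit became 2102, 4349 and 1516 to 3278. On the high fat diet the count of 7 ran from 4 (without HFD Mes B or HFD Epi C) to 7 with 1 left out. Among all genes 815 were called without HFD Mes B and 728 without HFD Epi C, against 1854 in the main fit. For the difference of the diet changes the count of 0 became 1 with a mean of at least 50 and with DESeq2, and 0 to 1 with 1 library left out. Among all genes tested the 1 of the main fit became 3, 133 and 1 to 20. The cause of these changes was not tested.

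The fitted direction turned for 3 genes. Gpnmb in mesentery went to -0.466 without HFD Mes A and without both libraries numbered 88, the latter chosen after seeing the data, and ran from -0.47 to 4.65 with 1 library left out. Lipa in mesentery went to 0.0442 with columns rescaled to the same total and ran from -0.21 to 0.00668 with 1 left out. Spp1 between tissues on the high fat diet went to -0.0764 with edgeR, -0.0725 with DESeq2 and -0.518 in the libraries numbered 50 to 53 and without both numbered 88, and ran from -0.37 to 1.33 with 1 left out. Rescaling moved the median of all genes by 0.13 in mesentery, -0.14 in epididymal fat, -0.27 for their difference, 0.08 between tissues on chow and -0.18 between them on high fat.

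With Adgre1 and Csf1r in place of the general macrophage list as reference, the mesentery diet differences turned from 0.60 to -0.72 for Gpnmb, 0.71 to -0.61 for Gdf3 and 0.58 to -0.75 for Rnf128. They moved from -0.19 to -1.51 for Trem2, -1.59 to -2.91 for Cd9, -0.81 to -2.14 for Cd63, -0.09 to -1.42 for Spp1 and -1.85 to -3.17 for Lipa. Cd9 differed in sign between the number ranges, 0.26 and -0.01 for the diet in mesentery and 0.69 and -0.15 between tissues on chow. Deviations of same-lettered libraries correlated at -0.68, 0.44 and -0.65 in epididymal fat and -0.15, 0.12 and 0.04 in mesentery. Deviations are taken from the group mean, which ties these values to each other. The pairs lettered A and C also cross the number ranges. Whether title letters pair libraries therefore cannot be told from these values. Same-numbered libraries correlated at 0.03, 0.53 and 0.58 for chow and -0.15, 0.15 and -0.11 for high fat. Differently numbered pairs ran from -0.68 to 0.52 for chow and -0.23 to 0.23 for high fat. In epididymal fat the deviations went with the number ranges. NC Epi C with HFD Epi A gave 0.84. NC Epi A and B with HFD Epi B and C gave 0.44 to 0.59, and pairs across the ranges -0.68 to -0.63. The cause was not tested. The replicate block by number left the tissue counts at 2 and 7. Gdf3, Rnf128 and Gpnmb are limited by low counts in mesentery, where single libraries held 1 to 4 reads. Gdf3 also had 1 read in NC Epi A, a library of 19318331 reads, so its epididymal diet change rests partly on a low count. The part of depth in these low counts was not tested.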
